A study of Danio rerio with 4 samples.

Results

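Heat shock proteins and the cofactors that work with them were measured with 1-colour Affymetrix arrays in whole zebrafish larvae, uhrf1 mutant and wildtype, 120 hours after fertilization. A probe set, the unit of measurement on this array, was included if it was annotated with exactly 1 gene symbol starting with hsp (other than hspa5 and hsp90b1), dnaj, hsf, stip1, ahsa1 or tcp1, or with cct or bag followed by a digit. This gave 74 of the 15502 tested probe sets, for 66 of 8793 named genes, 8 of them with 2 probe sets. By role they were 3 small heat shock proteins, 11 probe sets of the HSP70 and HSP110 families, 5 of HSP90, 2 of the mitochondrial chaperonin, 9 of the cytosolic chaperonin TRiC/CCT, 30 of DNAJ proteins, 8 of cochaperones and 4 of heat shock factors. The remaining 2, tcp11l2 and hsf2bp, matched by the first letters of their symbols and were placed in none of these roles. Although the selection aimed at the cytosol and the mitochondrion, at least 5 of the DNAJ genes (dnajb11, dnajc1, dnajc3a, dnajc3b and dnajc10) encode proteins that in mammals reside in the endoplasmic reticulum. Another 2 probe sets annotated with several symbols that would have matched were not read. The genes hsp70.1, hsp70.2, hsp70l, hsf4, stip1 and bag3 are not analysed here.

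The mutant group held 2 arrays, numbered 1 and 2, and the wildtype group held 2 arrays, numbered 1 and 3. The growth protocol names the offspring of uhrf1hi272+/- fish as the material for most experiments, and it also names a line carrying Tg(fabp10:hUHRF1-GFP), in which the promoter of a liver fatty acid binding protein gene drives human UHRF1, without saying that any of these 4 samples carried it. One protocol line gives the age in days, and the hours of the source label and of the design text were used. How many larvae went into a sample, and whether the replicates are separate clutches, is not given, and the spread behind the p-values may therefore be technical. In whole larvae, fewer cells of a type and less RNA per cell cannot be told apart.

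Heat shock proteins are molecular chaperones. HSP70 proteins bind exposed hydrophobic stretches in cycles of ATP hydrolysis that DNAJ (HSP40) proteins start and nucleotide exchange factors, such as HSP110 and BAG proteins, complete. HSP90 takes over partly folded clients such as steroid receptors and kinases, small heat shock proteins hold unfolding proteins in solution, and the TRiC/CCT ring folds actin and tubulin. When unfolded proteins accumulate in the cytosol, heat shock factor 1 is released and switches on the inducible members, so that hsp70, dnajb1 and the small heat shock proteins are the classic readouts of that response in zebrafish as in other animals.

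The 4 arrays had median intensities between 29.4 and 31.5. The uhrf1 transcript was read by 2 probe sets, the dimmer with a log2 change of -0.04 (limma adjusted p 0.96) and the brighter at 41.1 and 26.3 in mutant larvae, against 47.4 and 41.5 in wildtype larvae. This change of -0.42 ± 0.23 (SE, log2) was not called (limma adjusted p 0.56), and leaving out either mutant array moved it, to -0.73 (replicate 1 omitted) or -0.11 (replicate 2 omitted). The sources do not place its probes against the mutated site, and this is a weak check of the labels. The 18 probe sets of the hybridisation controls, foreign transcripts added in fixed amounts, differed by -0.49 on the log2 scale, mutant minus wildtype, and 17 of them had lower values on each mutant array than on either wildtype array. Values given here are on the deposited scale, where all probe sets together had a median of -0.04.

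No heat shock or chaperone probe set passed the test. At a limma adjusted p under 0.05, 0 of the 74 were higher and 0 were lower in uhrf1 mutants, while 1.5% of all tested probe sets were called, 0.845% higher and 0.658% lower. The lowest adjusted p among the 74 was 0.20. At an unadjusted p under 0.05, 3 probe sets (4.05%) were higher and 0 were lower, against 5.1% higher and 6.84% lower (11.9% in all) over the array. The share that was higher lay near that of all probe sets, and the share that was lower lay below it. Whether either share differs from that of the array was not tested. The 3 were those of hspb8, hspa4a and dnajc3b.

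No change was large, but the median log2 size without regard to sign was 0.17 for the 74, beside 0.14 for all probe sets. The log2 changes of the 74 ran from -0.47 for cct4 to 0.66 for hspb8, with a median of -0.0016 beside -0.04 for all probe sets. None reached 1 in either direction, a size that 2.14% of all probe sets reached. Changes below 0 made up 37 of the 74, against 60.1% over the array. The 95% interval of the change lay wholly within -1 and 1 for 68 of the 74 (91.9%), against 91.3% of all probe sets. The 6 whose interval reached beyond were dnaja3a, 1 probe set each of hspa9 and hsp90aa1.2, and hsp90aa1.1, cct4 and hspb8. Both mutant arrays lay above both wildtype arrays in 15 probe sets, or 20.3% against 14.9% over the array, and below them in 13, or 17.6% against 26.3%. When data were simulated for this comparison over 15502 probe sets, the test picked out 0 of 48 with a true log2 change of 0.5, 19 of 61 with 1 and 46 of 52 with 2. No size between 0.5 and 1 was simulated. The simulated noise was independent for each value, without effects shared across an array, so the share detected in the real data may differ.

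**Figure D1:**
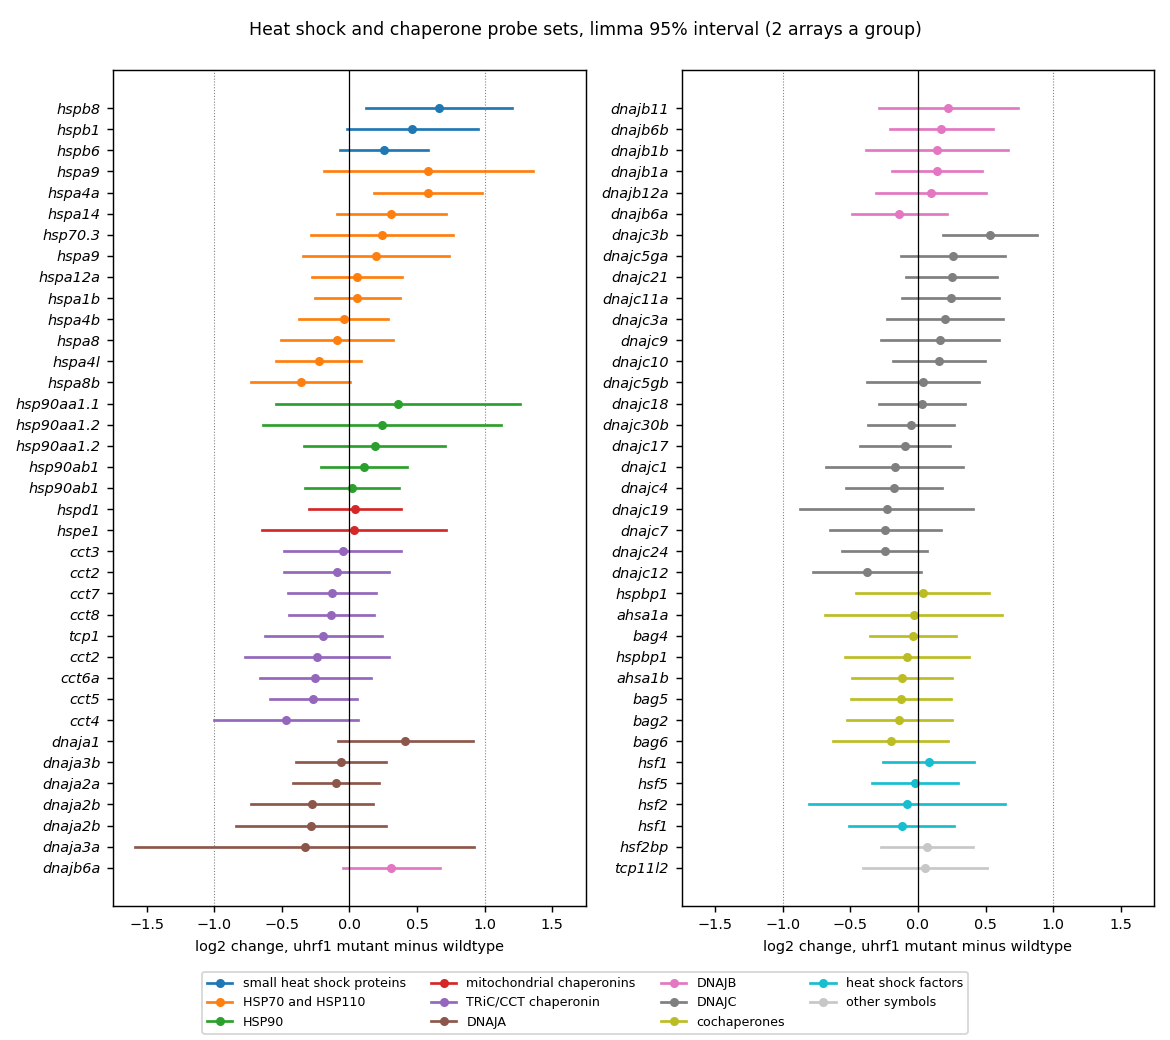
Log2 change (uhrf1 mutant minus wildtype, on log2(intensity + 1)) of all 74 probe sets, with dots for the estimate, bars for the limma 95% interval and colours for the role. Estimates lie between -0.47 (cct4) and 0.66 (hspb8), the intervals of hspb8, hspa4a and dnajc3b lie above 0, and dotted lines mark -1 and 1.

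All 3 small heat shock proteins of the selection (hspb1, hspb6 and hspb8) were higher on each mutant array than on either wildtype array. Over the array 14.9% of all probe sets had that order. The probe set of hspb8, whose product in mammals works with BAG3 in clearing damaged proteins from muscle, read 63.7 and 41.7 in mutant larvae, against 34.5 and 30.1 in wildtype larvae. Its log2 change was 0.66 ± 0.22 (SE), with a 95% interval from 0.12 to 1.2 and a limma adjusted p of 0.31. The mutant arrays differed from each other by more than the lower of them differed from the wildtype arrays. The probe set of hspb1, the zebrafish Hsp27, read 136 and 195 in mutant larvae, against 118 and 117 in wildtype larvae, a change of 0.47 ± 0.20 (SE, log2; limma adjusted p 0.44). The wildtype arrays lay close together and the mutant arrays apart, with mutant replicate 2 the highest. For hspb6, whose mammalian product is abundant in muscle, intensities were 32.7 and 33.1 in mutant larvae, against 26.1 and 28.7 in wildtype larvae. The median change of these 3 was 0.47, and with any 1 array left out it stayed between 0.25 and 0.48. None of the 3 passed. The rise does not extend to the alpha-crystallin genes cryaba and cryaa, of the same family but outside the selection. Their log2 changes were -0.16 for cryaba, lower without overlap at intensities between 10.1 and 12.6, and -0.13 for cryaa, with overlap. Neither was called.

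Among HSP70 and HSP110 genes the constitutive and inducible forms that were measured showed no called difference. The one gene with an interval above 0 encodes a nucleotide exchange factor. No probe set was analysed for hsp70.1, hsp70.2 or hsp70l. The constitutive hspa8, which folds newly made proteins, read 3336 and 4183 in mutant larvae, against 3714 and 4289 in wildtype larvae. Its arrays interleave, and the log2 change of -0.10 ± 0.17 (SE) had a 95% interval from -0.51 to 0.32. The inducible hsp70.3 was measured by a probe set of a type (x_at) that can also bind related transcripts, and it read 26.2 and 21.5 in mutant larvae, against 16.4 and 24.2 in wildtype larvae. Its log2 change of 0.24 ± 0.22 (SE) had an interval from -0.29 to 0.77, so the data do not settle its direction. The probe set named hspa1b read 8.21 and 7.97 in mutant larvae, against 7.88 and 7.604 in wildtype larvae, all under 12.6, the upper bound of the dimmest 25% of the array.

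The HSP110-type gene hspa4a, whose product releases ADP from HSP70, read 156 and 128 in mutant larvae, against 102 and 87.2 in wildtype larvae. All mutant values were above all wildtype values. The ratio of means was 1.51, with a change of 0.58 ± 0.16 (SE, log2), an interval from 0.18 to 0.98 and a limma adjusted p of 0.22. Its paralog hspa4b read 189 and 171 in mutant larvae, against 188 and 182 in wildtype larvae, and hspa4l read 63.6 and 60.9 in mutant larvae, against 72.1 and 74.02 in wildtype larvae. The 3 related genes thus had log2 changes of 0.58, -0.04 and -0.23, and the differences between them were not tested. The ribosome-associated hspa14 was at 0.31 ± 0.17 and hspa8b at -0.36 ± 0.15 (SE, log2), both without overlap of the groups, with adjusted p-values of 0.55 and 0.43. For hspa8b the intensities were only 11.4 and 12.4 in mutant larvae, against 17.1 and 14.2 in wildtype larvae. Such orders are common, as over the array 14.9% of probe sets were higher and 26.3% lower without overlap.

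**Figure D2:**
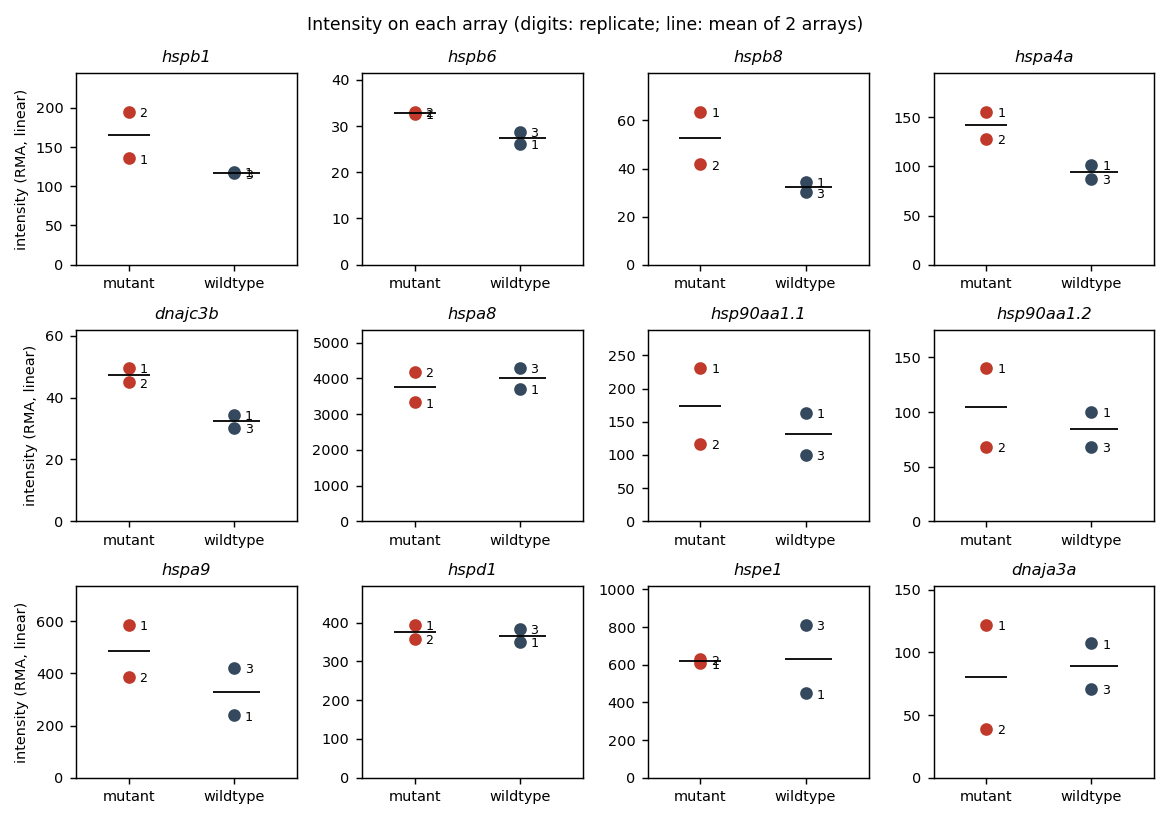
Deposited intensity (linear scale, from 0) on each array for 12 probe sets, mutant left of wildtype, with the replicate number beside each point and a line at the mean of 2 arrays. The groups separate for hspb1, hspb6, hspb8, hspa4a and dnajc3b and overlap for the other 7. The 12 were picked for display, and over the array 14.9% of probe sets were higher and 26.3% lower without overlap. The arrays of at least 1 group lie far apart for hsp90aa1.1, hsp90aa1.2, hspa9, hspe1 and dnaja3a.

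The HSP90 genes had no called difference. The constitutive hsp90ab1 read 3726 and 3879 in mutant larvae, against 3576 and 3485 in wildtype larvae, a change of 0.11 ± 0.13 (SE, log2) with an interval from -0.21 to 0.42. Its groups did not overlap, with the mutant higher as in 14.9% of all probe sets, but the difference was small. A second hsp90ab1 probe set read 8.01 to 9.42 on all 4 arrays, within the dimmest 25%. The gene hsp90aa1.1, needed for myosin folding in zebrafish skeletal muscle, read 231 and 117 in mutant larvae, against 163 and 100.2 in wildtype larvae. Replicate 1 was the higher array in each group, and the log2 change of 0.36 ± 0.37 (SE) had an interval from -0.54 to 1.26. The gene hsp90aa1.2, its neighbour among protein-coding genes in the RefSeq GRCz12tu annotation, read 140 and 68.1 in mutant larvae, against 100.2 and 68.0 in wildtype larvae on one probe set. On its other probe set it read 43.4 and 32.4 in mutant larvae, against 38.3 and 28.2 in wildtype larvae. In all 3 probe sets of this pair replicate 1 was the higher array within both groups. Near-identical copies such as these can share probe signal. Without mutant replicate 1 their log2 changes turned negative, at -0.13 for hsp90aa1.1 and at -0.27 and -0.02 for hsp90aa1.2.

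Of the proteins that work with HSP90, 11 of the 15 genes listed were measured, by 13 probe sets, and 0 were called. At an unadjusted p under 0.05, 4 of the 13 were higher and 0 lower, beside 5.1% higher and 6.84% lower over the array, and the list median was 0.15. This list, like the other lists, was chosen with earlier results of these data known, and its share was not tested against the array. The prolyl isomerase gene fkbp5, a glucocorticoid-induced cochaperone of steroid receptors, read 390 and 455 in mutant larvae, against 227 and 144 in wildtype larvae. This was a change of 1.21 ± 0.24 (SE, log2; limma adjusted p 0.086), and every mutant value was above every wildtype value. Its relative fkbp4 was at 0.63 ± 0.15 and ptges3b, which encodes a p23 cochaperone, at 0.60 ± 0.17 (SE, log2), both also without overlap and with adjusted p-values of 0.15 and 0.23. Mutant above wildtype without overlap was the order in 14.9% of all probe sets. The muscle myosin chaperone unc45b, which acts with hsp90aa1.1, was at 0.0012 ± 0.14 (SE, log2). Of 6 listed HSP70 partners 5 were measured, by 6 probe sets, and 0 of these passed even unadjusted. Their changes ran from -0.35 for st13 to 0.20 for grpel2.

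The mitochondrial chaperonin showed no called difference. The chaperonin subunit gene hspd1 (HSP60) read 395 and 359 in mutant larvae, against 350 and 384 in wildtype larvae, a change of 0.04 ± 0.14 (SE, log2) with an interval from -0.30 to 0.38. Its cochaperonin gene hspe1 (HSP10), the adjacent protein-coding gene in the same annotation, read 608 and 628 in mutant larvae, against 448 and 813 in wildtype larvae. Here the wildtype arrays enclosed both mutant arrays, and the change of 0.03 ± 0.28 (SE, log2) had an interval from -0.65 to 0.71. The matrix HSP70 gene hspa9, part of the protein import motor, read 587 and 387 in mutant larvae, against 240 and 421 in wildtype larvae on one probe set, and 61.0 and 77.6 in mutant larvae, against 49.6 and 72.0 in wildtype larvae on the other. The groups overlapped on each, with log2 changes of 0.58 ± 0.32 and 0.20 ± 0.22 (SE). The first was 0.18 without wildtype replicate 1 and 0.99 without wildtype replicate 3. The mitochondrial DNAJ gene dnaja3a had the widest spread of the 74, at 122 and 39.0 in mutant larvae, against 107 and 71.1 in wildtype larvae, and its interval ran from -1.59 to 0.92.

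Beside these, 7 of 10 genes listed for mitochondrial quality control were measured, by 10 probe sets. Of these 1 was called higher and 0 lower, beside 0.845% and 0.658% over the array, and the list median was -0.02. The called gene was atf5b, one of the zebrafish counterparts of ATF5, a transcription factor that in mammals drives the mitochondrial unfolded protein response. It read 153 and 122 in mutant larvae, against 45.6 and 46.9 in wildtype larvae, a change of 1.54 ± 0.16 (SE, log2; limma adjusted p 0.011). All mutant values lay far above the wildtype values. With a pseudocount of 16 its change was 1.3 and the adjusted p 0.069, so the call ended. The other counterpart, atf5a, was at 0.70 ± 0.24, the matrix protease gene lonp1 at 0.47 ± 0.19 and the matrix protease subunit gene clpp at -0.06 ± 0.21 (SE, log2), none of them called. The chaperonin genes hspd1 and hspe1, targets of that response in mammals, had changes of 0.04 ± 0.14 and 0.03 ± 0.28 (SE, log2). Whether that response differed between the groups was not tested.

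The 9 probe sets of TRiC/CCT, for all 8 subunits (tcp1 and cct2 to cct8), had log2 changes below 0, which 60.1% of all probe sets had, and 0 were called. Their median was -0.20, between -0.47 for cct4 and -0.05 for cct3. The subunit gene cct4 read 707 and 625 in mutant larvae, against 1130 and 751 in wildtype larvae, a change of -0.47 ± 0.22 (SE, log2) with a limma adjusted p of 0.48. The wildtype arrays differed more from each other than wildtype replicate 3 differed from the mutant arrays. The subunit gene cct5 read 1205 and 1246 in mutant larvae, against 1524 and 1427 in wildtype larvae, a change of -0.27 ± 0.13 (SE, log2) with an adjusted p of 0.51. Its arrays lay close together within each group and did not overlap between them. For cct7 the values were 660 and 708 in mutant larvae, against 729 and 767 in wildtype larvae, and for cct8 587 and 610 in mutant larvae, against 666 and 647 in wildtype larvae. In 4 of the 9 both mutant arrays were below both wildtype arrays, beside 26.3% over the array. In the other 5, among them tcp1 at 491 and 440 in mutant larvae, against 611 and 464 in wildtype larvae, the groups overlapped. In 8 of the 9 wildtype replicate 1 was the higher wildtype array, as it was in 58.0% of all probe sets. Without that array 7 of the 9 were below 0 and the median was -0.09, and without wildtype replicate 3 it was -0.31. Scaling to the hybridisation controls raises every probe set by about 0.49, which puts all 9 above 0.

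Prefoldin hands unfolded actin and tubulin to TRiC, and phosducin-like proteins and txndc9 regulate it. Of 9 genes listed here 7 were measured, by 9 probe sets, and 0 were called. The changes were below 0 in 8 of these 9, both mutant arrays were below both wildtype arrays in 7, and the median was -0.33. Over the array these figures were 60.1%, 26.3% and -0.04, and scaling on the hybridisation controls raises these 9 by about 0.49 too. The phosducin-like gene pdcl3 was at -0.69 ± 0.28 and -0.54 ± 0.26 (SE, log2) on its 2 probe sets. It read 56.9 and 42.6 in mutant larvae, against 61.1 and 104.8 in wildtype larvae on the first. The prefoldin subunit gene pfdn6 read 46.4 and 49.3 in mutant larvae, against 66.2 and 55.4 in wildtype larvae, a change of -0.33 ± 0.15 (SE, log2), and pfdn2 stood opposite with 0.09 ± 0.21.

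**Figure D3:**
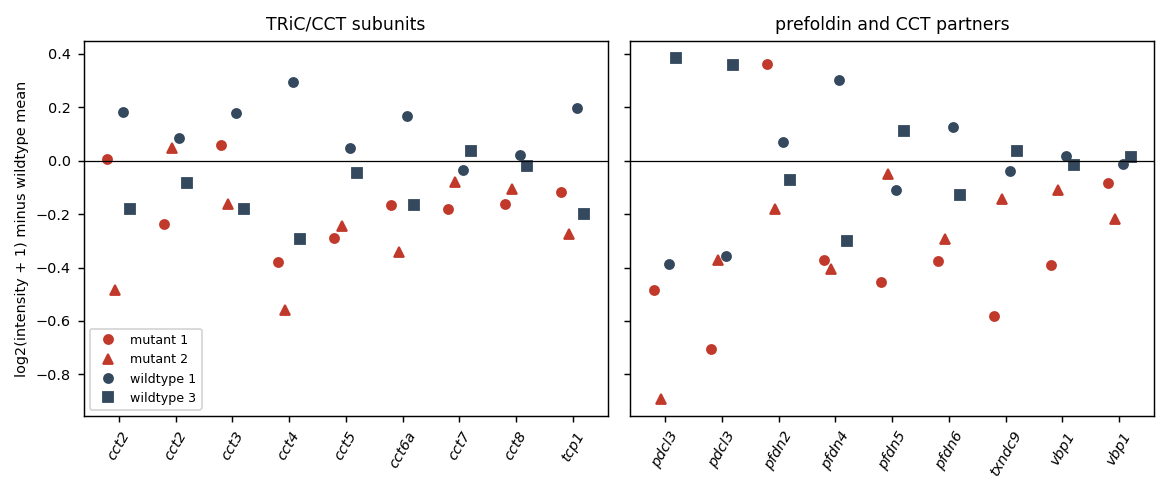
Value of each array on log2(intensity + 1) minus the wildtype mean of that probe set, for TRiC/CCT subunits (left) and for prefoldin and CCT partners (right), with mutant arrays in red and wildtype arrays in dark blue. All 9 TRiC/CCT probe sets and 8 of 9 partner probe sets have a mutant mean below 0, none was called, and wildtype replicate 1 is above wildtype replicate 3 in 8 of the 9 TRiC/CCT probe sets. Scaling on the hybridisation controls raises every probe set by about 0.49 and puts the 9 TRiC/CCT changes above 0.

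The 30 DNAJ probe sets, of 28 genes, had log2 changes from -0.38 to 0.53 with a median of 0.03. Of them 14 were below 0, beside 60.1% of all probe sets. The gene dnajc3b, a counterpart of mammalian DNAJC3 (P58IPK), which assists the HSP70 of the endoplasmic reticulum, read 49.5 and 44.9 in mutant larvae, against 34.4 and 30.3 in wildtype larvae. The groups were separate and each was narrow, with a ratio of means of 1.46, a change of 0.53 ± 0.14 (SE, log2), an interval from 0.18 to 0.88 and the adjusted p of 0.20 that was the lowest of the 74. Over all probe sets 14.9% were higher without overlap. The paralog dnajc3a read 40.9 and 54.2 in mutant larvae, against 42.5 and 39.2 in wildtype larvae, with overlap. Together the 5 DNAJ genes named above for the endoplasmic reticulum had a median of 0.20, and dnajc1 was the one of them below 0, at -0.17.

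Of the cytosolic DNAJ genes, dnajb1a and dnajb1b are counterparts of the heat-inducible DNAJB1. The probe set of dnajb1a read 16.2 and 16.3 in mutant larvae, against 15.5 and 13.8 in wildtype larvae, and that of dnajb1b 60.4 and 42.5 in mutant larvae, against 40.7 and 51.6 in wildtype larvae. Both log2 changes were 0.14, with intervals from -0.19 to 0.47 and from -0.38 to 0.67. The HSP70 cochaperone gene dnaja1 read 45.8 and 31.0 in mutant larvae, against 29.0 and 27.2 in wildtype larvae, a change of 0.41 ± 0.20 (SE, log2) that mutant replicate 1 carries for the most part. By comparison, dnaja2b was at -0.28 on both of its probe sets and dnaja2a at -0.10. Among DNAJC genes the most negative change was that of dnajc12, whose human product serves the aromatic amino acid hydroxylases. It read 25.6 and 25.2 in mutant larvae, against 37.7 and 29.4 in wildtype larvae, a change of -0.38 ± 0.16 (SE, log2) with an adjusted p of 0.45. The tetratricopeptide gene dnajc7 read 251 and 242 in mutant larvae, against 333 and 256 in wildtype larvae. The probe set of dnajc24, a diphthamide synthesis gene, was dim throughout, between 7.39 and 9.17. The gene dnajb6a, whose mammalian counterpart prevents aggregation, had opposite signs on its 2 probe sets, at -0.14 on the brighter and 0.31 on the other, which lies in the dimmest 25%.

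The other DNAJ genes stayed within 0.26 of 0 on the log2 scale. Higher in mutants without overlap, as 14.9% of all probe sets were, were dnajc21, dnajc11a, dnajc5ga and dnajc10. Values were, for dnajc21, a ribosome assembly factor, 54.2 and 50.3 in mutant larvae, against 41.4 and 46.2 in wildtype larvae, and for dnajc11a, whose mammalian counterpart shapes mitochondrial cristae, 55.1 and 64.6 in mutant larvae, against 52.4 and 48.3 in wildtype larvae. The relative of the synaptic cysteine string proteins dnajc5ga read 124 and 103 in mutant larvae, against 88.6 and 100.5 in wildtype larvae, with a change of 0.26 ± 0.16 (SE, log2), and its paralog dnajc5gb was at 0.04 with overlap. The disulfide reductase gene dnajc10 read 21.1 and 22.2 in mutant larvae, against 20.6 and 18.1 in wildtype larvae. Lower in mutants without overlap, as 26.3% of all probe sets were, were dnajc4, between 7.56 and 9.73 and thus dim, and dnajc30b, a mitochondrial DNAJ gene, at 23.5 and 24.4 in mutant larvae, against 25.3 and 24.5 in wildtype larvae. The import motor gene dnajc19 read 111 and 141 in mutant larvae, against 189 and 114 in wildtype larvae, so that wildtype replicate 1 alone stood out. The histone chaperone gene dnajc9 read 103 and 78.5 in mutant larvae, against 86.1 and 74.9 in wildtype larvae, again with replicate 1 higher in each group.

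For the 8 genes with 2 probe sets the 2 log2 changes were compared. The sign agreed in 5 of these genes (cct2, dnaja2b, hsp90aa1.2, hsp90ab1 and hspa9) and differed in 3 (dnajb6a, hsf1 and hspbp1). For hsf1, hsp90ab1 and hspbp1, among others, the changes were smaller than their SE. The dimmer probe sets of dnajb6a, hsf1 and hsp90ab1 lie in the dimmest 25%. The signs therefore do not measure how far a gene's reading depends on its probes. The widest disagreement was that of dnajb6a, and the closest match that of dnaja2b, at -0.284 and -0.276. The spread between arrays of 1 group was also set beside that of all probe sets. The median gap between the 2 mutant arrays was 0.22 on the log2 scale for the 74, beside 0.17 for all probe sets. Between the 2 wildtype arrays it was 0.18, beside 0.16. With only the brightest probe set of each gene, the mutant gap was 0.177, close to the 0.174 of all probe sets. The wildtype gap was then 0.176. The gap reached 1.62 between the mutant arrays for dnaja3a, and 0.86 and 0.81 between the wildtype arrays for hspe1 and for the brighter hspa9 probe set.

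The heat shock factors themselves showed no called difference. The master regulator hsf1 read 30.5 and 28.7 in mutant larvae, against 26.4 and 29.5 in wildtype larvae on its brighter probe set, a change of 0.08 ± 0.14 (SE, log2) with an interval from -0.26 to 0.42. On the other it was at -0.12 at intensities between 9.42 and 11.98. The factor gene hsf2 read 92.3 and 159 in mutant larvae, against 107 and 153 in wildtype larvae, so each group held a low and a high array. The factor gene hsf5 stayed between 5.94 and 6.37, within the dimmest 25%. Activation of heat shock factor 1 acts on the protein and is not read by its transcript level.

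Among cochaperones 7 of 8 probe sets had changes below 0, beside 60.1% of all probe sets. In all 8 the values of mutant and wildtype larvae overlapped. Over the array 14.9% of probe sets were higher and 26.3% lower without overlap. Changes ran from -0.20 to 0.03. The gene bag6, whose product guards tail-anchored proteins before membrane insertion, read 61.6 and 57.6 in mutant larvae, against 78.9 and 59.6 in wildtype larvae, a change of -0.20 ± 0.17 (SE, log2). The HSP70 exchange factor genes bag2 and bag5, within the dimmest 25%, were at -0.14 ± 0.16 and -0.13 ± 0.15, and bag4 at -0.04 ± 0.13 (SE, log2). The HSP90 ATPase activator gene ahsa1b read 45.1 and 48.0 in mutant larvae, against 55.6 and 46.1 in wildtype larvae. Its paralog ahsa1a read 12.2 and 22.3 in mutant larvae, against 17.4 and 16.6 in wildtype larvae, where the mutant arrays enclosed the wildtype arrays. The 2 prefix matches were at 0.05 (tcp11l2) and 0.07 (hsf2bp).

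Among other chaperones and stress-inducible genes 5 of 9 listed were measured, by 6 probe sets, and 0 were called. The extracellular chaperone gene clu read 214 and 278 in mutant larvae, against 120 and 132 in wildtype larvae, a change of 0.95 ± 0.17 (SE, log2; limma adjusted p 0.071). The collagen chaperone gene serpinh1b (HSP47), itself heat-inducible, read 35.8 and 15.3 in mutant larvae, against 11.4 and 10.5 in wildtype larvae, a change of 1.04 ± 0.36 (SE, log2) with an adjusted p of 0.33. In both genes all mutant values lay above the wildtype values, and for serpinh1b the mutant arrays stood far apart. The other 4 probe sets were at -0.16 for cryaba, with both mutant arrays below both wildtype arrays, -0.13 for cryaa, and -0.08 and 0.0025 for the ubiquitin gene ubb. The list median was -0.04. Without overlap of the groups, 14.9% of all probe sets were higher and 26.3% lower. Over all partner lists, 35 of 49 genes were measured by 44 probe sets, with a median change of 0.0018. At an unadjusted p under 0.05, 9 of the 44 were higher and 1 lower, beside 5.1% higher and 6.84% lower over the array. Because the lists were chosen with earlier results of these data known, these counts are a description only.

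Markers of tissues that use some of these chaperones were read from the same fit. Skeletal muscle markers, 12 of 16 genes on 17 probe sets, summed to 102862 and 100440 in mutant larvae, against 93776 and 86963 in wildtype larvae. Of the 17, 0 were called, and the median change was 0.14, while acta1a was at -0.51. Both mutant arrays lay above both wildtype arrays in 10, beside 14.9% over the array, and below them in 1, beside 26.3%. At an unadjusted p under 0.05, 0 were higher and 1 lower, beside 5.1% and 6.84%. The sum leans on bright probe sets, among them 1 of actc1b at 17601 and 17346 in mutant larvae, against 16932 and 16304 in wildtype larvae. Lens markers, 3 of 9 genes, summed to 1687 and 1419 in mutant larvae, against 2928 and 2421 in wildtype larvae, with 0 called and a median of -0.70. At an unadjusted p under 0.05, 2 of the 3 probe sets were lower, beside 6.84% over the array, and cryaa was at -0.13 with overlap. The crystallin gene crybb1 makes up most of the lens sum. Myeloid and lymphoid markers, 6 of 7 genes on 11 probe sets, summed to 451 and 536.5 in mutant larvae, against 434 and 313 in wildtype larvae. Of these 0 were called, and the median was 0.14. The probe sets of mpx differed, at 1.05, 0.16, 0.15 and -0.20. Those at 0.16 and -0.20 read between 5.71 and 9.48, under the 12.6 that bounds the dimmest 25% of the array. Those at 1.05 and 0.15 were brighter and higher in mutants without overlap. The largest part of the sum was lyz, at 210 and 268 in mutant larvae, against 194 and 102 in wildtype larvae. The part of these tissues in the values of hsp90aa1.1, hspb6 and hspb8 was not tested.

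Scaling on the hybridisation controls decides the sign of many of these changes, but other scalings do so little. Of 43 log2 changes, those of members chosen by the naming rule and of atf5b, control scaling reversed 17 and quantile normalization 1. Median centring left all 43 with the same sign. Scaled on the hybridisation controls, 24 of the 74 were called higher and 0 lower, but 33.1% of all probe sets were then called higher, and the median change was 0.49 beside 0.45 for all probe sets. The small heat shock proteins stood at 0.96 and TRiC/CCT at 0.29 on that scale. That scaling adds about the same amount to every change, so distances between role groups are as before. With 1 array left out the ranking varied. Without mutant replicate 2 the median of HSP90, at 0.39, was above the 0.25 of the small heat shock proteins, and without mutant replicate 1 that of DNAJA, at -0.28, was below the -0.24 of TRiC/CCT.

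**Figure D4:**
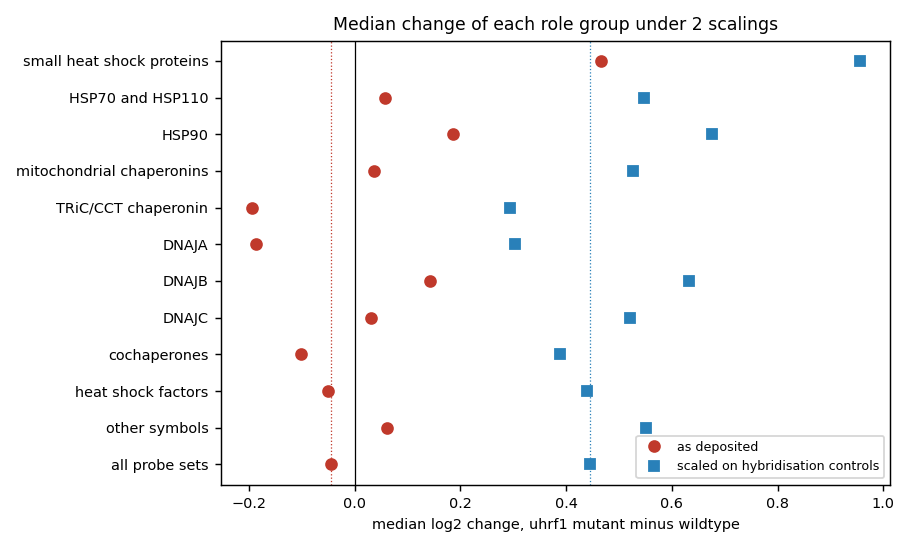
Median log2 change (uhrf1 mutant minus wildtype) of each role group and of all probe sets, as deposited (red circles) and with arrays scaled on the hybridisation controls (blue squares), with dotted lines at the median of all probe sets. Small heat shock proteins are at 0.47 and 0.96, TRiC/CCT at -0.20 and 0.29, and all probe sets at -0.04 and 0.45.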

How the data were processed

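For each probe set the authors deposited a linear-scale intensity. Per the submitters' processing notes it comes from RMA, which corrects background, quantile-normalizes arrays and summarises probes and which compresses changes near background. No version of it is named in the sources used here, and there are no detection calls. Of 15617 probe sets, 115 array controls were left out. Of the rest, 10795 carry 1 gene symbol in the platform annotation, 135 carry several and 4572 carry none. Looking up current symbols by Entrez ID changed 0 of the 74 members.

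The log2(intensity + 1) of each array was fitted over all 15502 probe sets with limma 3.58.1 in R 4.3.3 (lmFit, eBayes), with 2 residual and 4.04 prior degrees of freedom. P-values are two-sided limma p-values, adjusted by Benjamini-Hochberg over all 15502. Log2 changes are mutant minus wildtype. No list was tested as a set. The fit was tested on simulated data, with 2 false calls. The number of arrays limits precision, and brightness ranks and summed intensities describe probe sets, not transcript amounts.

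The members, lists and tests were chosen with earlier results of these data known. Named members were the 3 with the smallest p and the brightest of each role group plus a fixed set of genes. Others named (hspa1b, hspa4b, hspa4l, dnaja3a, dnajc1, dnajc3a and other DNAJ genes, cct3, cct7, cct8, hsf5, bag4, ahsa1a and ahsa1b, and partners beyond the 3 with the smallest p) were added after their values were seen. Alternatives were other scalings, a pseudocount of 16, a filter on the dimmest 25%, another prior and each array left out. No sequences are shown.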

Additional observations from a re-analysis of the deposited data

How the results depend on the processing

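No member was called under any setting except scaling on the hybridisation controls, where 24 were called higher. At an unadjusted p under 0.05 there were 3. The members' median was 0.49 with that scaling and lay between -0.03 and 0.05 otherwise. The count over all probe sets, 233, was 80 with a pseudocount of 16, 5223 with control scaling, 394 with an intensity-dependent robust prior and 1850 unadjusted, and 154 to 310 with 1 array left out (154 without mutant replicate 1). Partner probe sets called, 1 as deposited, were 0 with a pseudocount of 16, 16 with control scaling, 3 (atf5b, fkbp5 and clu) with the robust prior and 3 without the dimmest 25%, and 1 to 2 with 1 array left out, where serpinh1b joined atf5b without mutant replicate 2 and fkbp5 without wildtype replicate 1. The targeted gene uhrf1 was at 0.069 with control scaling.

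No member listed here was called as deposited. Control scaling turned all 37 members below 0 to above 0, among them dnajc30b, which was then called higher. For those chosen by the naming rule the log2 changes were 0.35 for bag2, 0.36 for bag5, 0.29 for bag6, 0.020 for cct4, 0.22 for cct5, 0.24 for cct6a, 0.39 for dnaja2a, 0.21 for both probe sets of dnaja2b, 0.11 for dnajc12, 0.24 for dnajc24, 0.25 for dnajc7, 0.37 for the dimmer hsf1 probe set, 0.41 for hsf2, 0.39 for hspa8, 0.13 for hspa8b and 0.29 for tcp1. Quantile normalization gave 0.033 for hspa8. With 1 array left out, values ran from -0.30 to 0.026 for bag2, -0.26 to 0.011 for bag5, -0.60 to 0.031 for the brighter dnaja2b, -0.025 to 0.48 for dnajb11, -0.11 to 0.39 for dnajb1b, -0.28 to 0.036 for the dimmer hsf1, -0.47 to 0.31 for hsf2, -0.023 to 0.16 for hsf2bp, -0.027 to 0.51 for hsp70.3, -0.13 to 0.85 for hsp90aa1.1, -0.27 to 0.76 and -0.028 to 0.40 for hsp90aa1.2, -0.086 to 0.12 for the dimmer hsp90ab1, -0.26 to 0.068 for hspa8, -0.066 to 0.46 for the dimmer hspa9, -0.030 to 0.11 for hspd1, -0.40 to 0.46 for hspe1, -0.39 to 0.0026 for tcp1 and -0.15 to 0.26 for tcp11l2. Without a sign change, it moved by over 1.5 times for hspb8 (0.36 to 0.96), hspb1 (0.20 to 0.73), the brighter hspa9 (0.18 to 0.99), dnaja1 (0.14 to 0.69) and cct4 (-0.76 to -0.18), among others. The cause was not tested, beyond 1 array fewer and the shift of 0.49 in the controls.

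A lone array left in a group is assumed to vary like the others. Leaving out hspg2 was not run, since no member has that symbol. The symbols as printed gave the same 74 members. Dropping tcp11l2 and hsf2bp, or the 5 DNAJ genes named for the endoplasmic reticulum, was chosen after seeing the data and called 0 members with a median of -0.027 or -0.032. No paired analysis was possible because the groups share only replicate number 1. RMA values carry no detection calls, and 11 of the 74 lie in the dimmest 25%, where changes are understated.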
